A study of Mus musculus with 2 samples.

Results

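This report describes 8 growth factor genes that macrophages use in tissue repair, Igf1, Pdgfa, Pdgfb, Pdgfc, Hbegf, Areg, Ereg and Hgf, in mouse bone marrow-derived macrophages (BMDMs) with and without interleukin-4 (IL-4). The members were chosen by name, and every probe on the arrays whose RefSeq accession belongs to one of them was taken, which gave 13 of the 39429 probes for genes and 8 of the 32448 genes or unnamed transcripts that those probes read. Both groups of BMDMs came from the marrow of Crif1 f/f males aged 8 weeks, whose Crif1 gene is flanked by loxP sites, and no Cre is named for these cultures. The groups were untreated BMDMs and BMDMs treated with IL-4 for 18 h, with 1 Cy3-labeled array per condition. The IL-4 dose of these cultures and the number of mice behind each RNA are not given in the sources used here. With 1 array per condition no difference has a replicate check, no p-value is given, and precision is limited by there being 2 arrays.

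IL-4 signals through its receptor and STAT6 and moves macrophages toward the M2-like state, in which they take part in wound repair, matrix turnover and the support of epithelial and stromal cells. The growth factors described here act on receptor tyrosine kinases. IGF-1 binds the IGF-1 receptor, the PDGF chains bind PDGF receptors α and β on fibroblasts and other mesenchymal cells, HB-EGF, amphiregulin and epiregulin bind the EGF receptor and its relatives after they are shed from the cell membrane, and HGF binds MET. The study first looked for secreted factors in human macrophages treated with rosiglitazone, a PPARγ agonist. It then used the IL-4 data from mouse BMDMs to see which of those factors IL-4 induced.

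Intensity is the spot brightness after background subtraction. For each probe, log2 intensity minus the 75th percentile of its array gives the scaled level, and the log2 difference is the scaled level after IL-4 minus that of untreated BMDMs. Where several probes read a gene, the brightest one stood for it. A probe well above background by the scanner software on both arrays has a measured difference, on 1 array a lower bound of its size where that bound exceeds 1-fold, which left 40 genes without a fold, and on neither array no fold, and such probes are called detected on both, on 1 or on neither. A gene was counted as changed when its log2 difference was at least 1 in size, which is 2-fold. The 19743 genes detected well above background on either array or both included 564 that passed 2-fold upward, or 2.86%, and 883 that passed it downward, or 4.47%. With median scaling these counts were 827 and 564, with quantile normalization 801 and 532, with cyclic loess 693 and 632, and with scaling on spike-in control RNA 994 and 473. As a check that IL-4 acted, Arg1, which encodes arginase 1, went from an intensity of 84.9 to 19688.

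Among the 8 growth factors, Pdgfa was 2.33-fold higher after IL-4, Igf1 was 1.78-fold higher at its brightest probe and over 2-fold higher at its 2 dimmest ones, Hgf was 1.96-fold lower and Ereg was 1.68-fold lower. Pdgfb, Pdgfc and Hbegf lay within 0.15 of 0 on the log2 scale, and Areg was detected on neither array. So 1 of the 8 passed 2-fold upward, beside 2.86% of all genes, and 0 passed it downward, beside 4.47% of all genes. All 7 members with a value were detected on both arrays, whereas 201 of the 564 higher genes and 613 of the 883 lower genes rest on a bound, and among genes detected on both arrays 363 were higher and 270 lower past 2-fold. The median log2 difference over the 7 members with a value was -0.05, beside -0.01 over the 17242 genes detected on both arrays. In RNA of a whole culture, fewer cells that express a gene and less of its RNA per cell cannot be told apart.

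**Figure D1:**
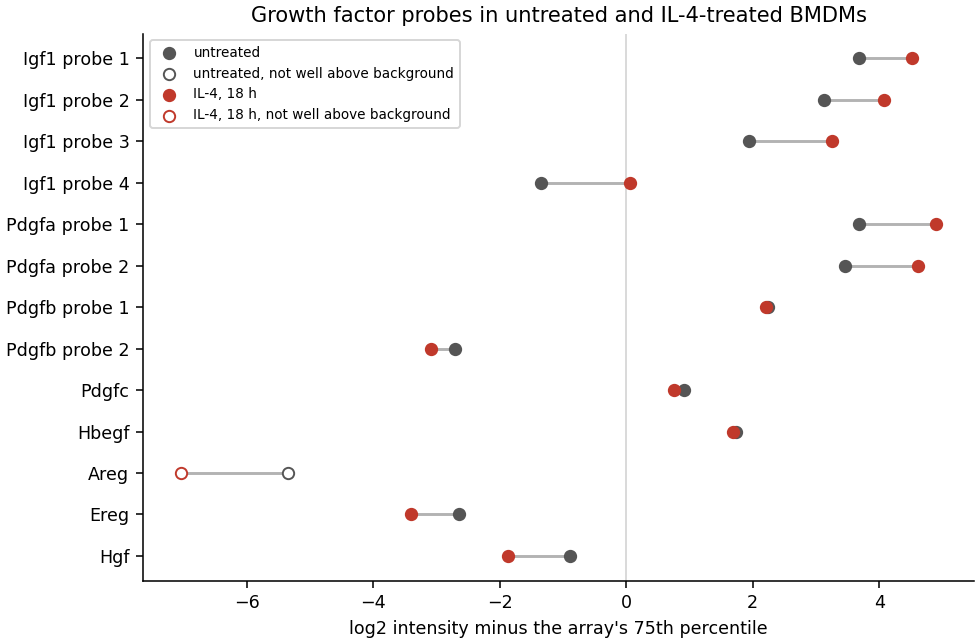
Scaled log2 intensity (log2 intensity minus the 75th percentile of the array) of each of the 13 growth factor probes on the untreated array (gray) and the IL-4 array (red), with probes of a gene numbered from the brightest. Open symbols are not well above background, as for Areg on both arrays. Both Pdgfa probes and all 4 Igf1 probes lie further right after IL-4, whereas the brighter Pdgfb probe and the Pdgfc and Hbegf probes nearly overlap.

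PDGF-A forms a homodimer that binds PDGF receptor α, the receptor of fibroblast precursors. The brightest Pdgfa probe had an intensity of 11746 in untreated BMDMs and 29358 after IL-4, and the other probe went from 10059.6 to 23961. Both probes were therefore higher on the IL-4 array, at log2 differences of 1.22 and 1.15, or 2.33-fold and 2.22-fold. The scanner software put the error of each intensity at 10%, which is 0.20 on the log2 scale for a difference, and probes of like signal printed in 10 spots had a median SD between spots of 0.05. These errors cover the spots and not the spread between cultures. The scalings tried gave log2 differences between 1.13 and 1.53 at the brightest probe, so Pdgfa stayed past 2-fold under each. Of the 19703 genes with a log2 difference, genes on a bound included, 387 were at least as high as Pdgfa, or 1.96%.

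IGF-1 is the ligand of the IGF-1 receptor, and macrophages are a local source of it in injured muscle and other tissues. Igf1 was read by 4 probes, all assigned to the same transcript accession, and the stretch of the transcript that each one reads is not given in the sources used here. The brightest went from an intensity of 11767 in untreated BMDMs to 22477 after IL-4, a log2 difference of 0.83. The next went from 7949.7 to 16542, a log2 difference of 0.96. All 4 probes were higher after IL-4, and the dimmer ones had the larger differences. The third went from 3525 to 9357, a log2 difference of 1.31, and the dimmest from 359.9 to 1021, a log2 difference of 1.40. The probes thus spread over 0.57 on the log2 scale, from 1.78-fold to 2.65-fold, which is wider than the software error of 0.20 or 0.21 for each difference. By the brightest probe Igf1 did not reach 2-fold, and 752 genes, or 3.82%, were at least as high, genes on a bound included. It passed 2-fold at 2 of 4 probes, and at the brightest probe its log2 difference was 1.05 with median scaling and 1.14 with spike-in scaling. The lowest value at that probe, 0.74, came with quantile normalization.

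**Figure D2:**
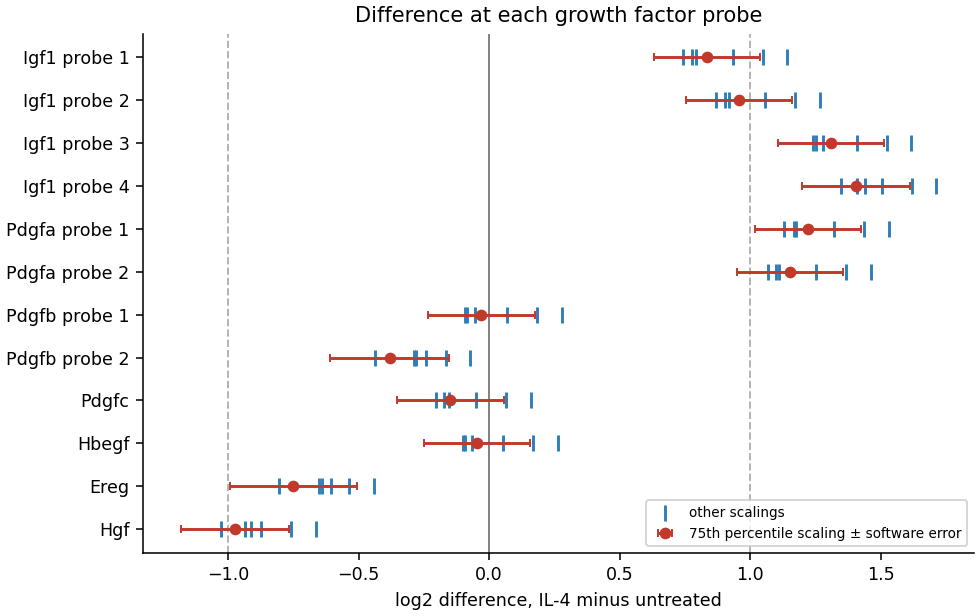
Log2 difference (IL-4 minus untreated) at the 12 growth factor probes detected on both arrays, with 75th percentile scaling (red points, bars show the error of the difference from the scanner software's error model) and with the 6 other scalings (blue ticks). Dashed lines mark 2-fold. Both Pdgfa probes lie past the upper line under every scaling, the Igf1 probes lie around or above it, Hgf and Ereg lie left of 0 under every scaling, and the brighter Pdgfb probe, Pdgfc and Hbegf change sign with the scaling.

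Because Pdgfa and Igf1 had the highest differences of the group, the 250 bases upstream of their annotated start sites are shown, from RefSeq on GRCm38.p6, for context and not as evidence for a site. Both strands were searched for the GC box (letters GGGCGG), the CCAAT box (letters as in its name), the TATA box (letters TATAAA) and the spaced palindrome that STAT6 can bind, TTC followed by 4 bases of any kind and GAA. Capitals mark the matches, and a match on the reverse strand of the window shows as its reverse complement. Pdgfa has 2 annotated starts on the minus strand of chromosome 5, and Igf1 has 1 in the table on the plus strand of chromosome 10.
Pdgfa, chr5:138994945-138995194, minus strand: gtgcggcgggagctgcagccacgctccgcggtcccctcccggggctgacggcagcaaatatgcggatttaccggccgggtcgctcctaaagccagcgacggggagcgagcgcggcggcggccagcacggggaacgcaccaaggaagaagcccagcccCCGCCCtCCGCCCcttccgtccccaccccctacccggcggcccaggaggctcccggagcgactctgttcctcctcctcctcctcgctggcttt
Pdgfa, chr5:138994282-138994531, minus strand: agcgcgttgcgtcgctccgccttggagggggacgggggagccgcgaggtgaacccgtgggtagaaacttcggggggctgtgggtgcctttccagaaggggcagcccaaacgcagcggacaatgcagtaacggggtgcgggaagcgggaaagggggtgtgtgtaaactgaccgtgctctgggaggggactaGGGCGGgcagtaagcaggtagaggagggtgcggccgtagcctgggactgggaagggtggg
Igf1, chr10:87860861-87861110, plus strand: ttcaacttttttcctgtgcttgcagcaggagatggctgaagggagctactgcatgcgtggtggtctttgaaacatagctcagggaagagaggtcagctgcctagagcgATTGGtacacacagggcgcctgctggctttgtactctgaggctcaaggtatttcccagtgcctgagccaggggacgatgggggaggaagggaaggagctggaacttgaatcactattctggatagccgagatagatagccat
The GC box letters occurred at 2 places in the first Pdgfa window and at 1 place in the second, and such a match is present in 32.7% of the 32851 windows of this length in the table. The Igf1 window held the CCAAT box once, on the reverse strand, and 33.8% of all windows hold a match. The palindrome with 4 spaced bases was in 0 of the 7 windows of the 5 members that the table lists, Pdgfc, Hgf, Areg, Pdgfa and Igf1, and in 5.85% of all windows. Other spacings were not searched, among them that of the putative STAT6 site which the study names in the human GDF15 promoter. The Areg window held the TATA box letters, as 12.4% of all windows do, and also the GC box letters.

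The remaining PDGF genes among the members stayed near their untreated signal. PDGF-B binds both PDGF receptors and is known for the recruitment of pericytes. The brighter Pdgfb probe went from an intensity of 4315 to 4528, a log2 difference of -0.03, and the dimmer one from 139.6 to 115, a log2 difference of -0.38. The difference at the brighter probe was under the spot SD of 0.05, and it was positive without scaling (0.07), with median scaling (0.18) and with spike-in scaling (0.28). The dimmer probe had a spot SD of 0.13 and a software error of 0.23, and it stayed below 0 under each scaling, between -0.44 and -0.07. PDGF-C is secreted in a latent form that proteases such as tissue plasminogen activator open. Pdgfc had an intensity of 1715 in untreated BMDMs and 1658 after IL-4, a log2 difference of -0.15 that turned to 0.07 with median scaling and 0.16 with spike-in scaling. Of the 3 PDGF ligands among the members, Pdgfa alone passed 2-fold on these arrays at any probe.

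HB-EGF, amphiregulin and epiregulin are made as membrane proteins, and shedding releases the soluble EGF receptor ligand. Hbegf had an intensity of 3037 in untreated BMDMs and 3153 after IL-4, a log2 difference of -0.05 with a spot SD of 0.05, which was positive without scaling (0.05), with median scaling (0.17) and with spike-in scaling (0.26). Its signal was clearly detected and close on the arrays. Ereg was dim, at 146 in untreated BMDMs and 93.0 after IL-4, with a pixel median of 207 and 155.5 before background subtraction, where the negative control spots had a median of 57 on both arrays. Its log2 difference was -0.75, or 1.68-fold lower, with a spot SD of 0.15 and a software error of 0.24. The scalings put it between -0.80 and -0.44, and 7.75% of genes were at least as low, genes on a bound included. Areg had an intensity of 22.4 in untreated BMDMs and 7.42 after IL-4, with software errors of 29.2% and 78.4%. Both values are not well above background, so no fold is given for amphiregulin.

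HGF is made by mesenchymal cells and by some macrophages, and it drives growth and migration of epithelial cells through MET. Hgf had an intensity of 494 in untreated BMDMs and 269 after IL-4, a log2 difference of -0.97, or 1.96-fold lower, with a spot SD of 0.07 and a software error of 0.21. It lies just inside 2-fold, and 943 genes, or 4.79%, were at least as low, genes on a bound included. Among genes detected on both arrays, as Hgf was, 270 were lower past 2-fold. Hgf stayed below 0 under each scaling, between -1.03 and -0.66, and passed 2-fold when the 75th percentile was taken over the probes detected on both arrays.

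By brightest probe, Ereg and Hgf were the dimmest members with a value. The arrays differed at control RNA, at low and at high signal. Spike-in probes detect synthetic RNA that is added to each sample. The spike-in probe nearest to Ereg in signal went from an intensity of 108 to 70.5, or -0.70 on the scaled log2 scale (SD 0.20, 32 spots), beside -0.75 for Ereg. The spike-in probe nearest to Hgf went from 527 to 429, or -0.41 (SD 0.08, 32 spots), beside -0.97 for Hgf. Brighter spike-in probes, at log2 intensities of 10.03 and 11.75 in untreated BMDMs, had -0.32 and -0.33. The brightest one, at 18.34, had -0.08. The 1820 genes within 0.5 log2 units of Ereg in mean signal had a median difference of -0.10, with quartiles of -0.35 and 0.11, and the 1939 genes so near Hgf had a median of -0.05, with quartiles of -0.22 and 0.12. Ereg and Hgf both lay below the lower quartile of genes of like signal. For the brightest Pdgfa and Igf1 probes the corresponding medians were 0.07 and 0.07, with upper quartiles of 0.20 and 0.20, and the spike-in probe that went from a log2 intensity of 14.2 to 14.0 had a scaled difference of -0.33 (SD 0.07). The part of these array differences in the values of Ereg and Hgf was not tested.

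**Figure D3:**
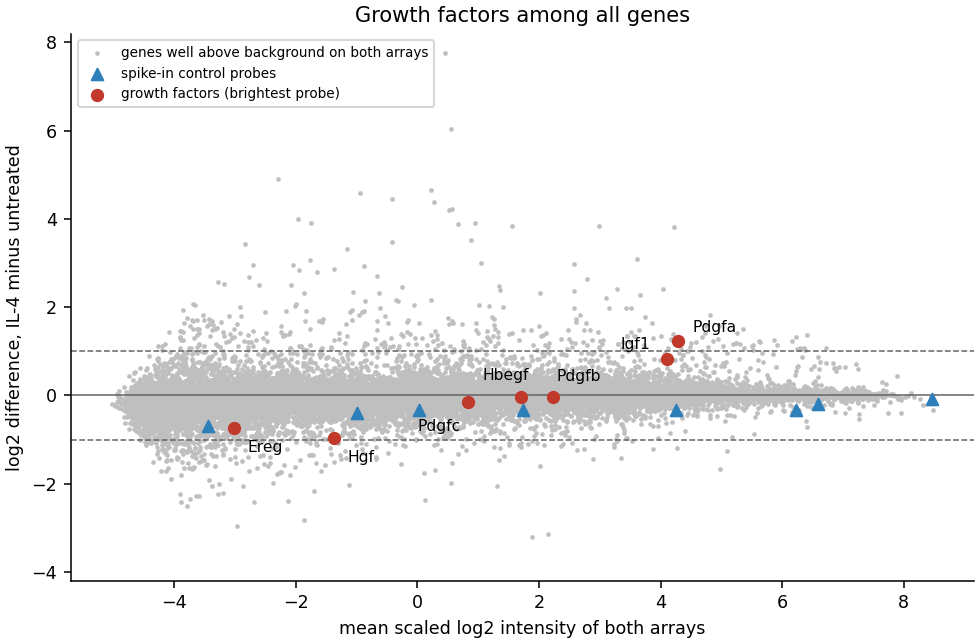
Log2 difference (IL-4 minus untreated) against mean scaled log2 intensity for the 17242 genes detected on both arrays (gray), the 7 growth factors with a value (red, brightest probe) and the spike-in control probes well above background in every spot (blue triangles), with dashed lines at 2-fold. Pdgfa at 1.22 lies above the upper line and Hgf at -0.97 just inside the lower one, while Ereg at -0.75 lies beside a spike-in probe at -0.70.

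The receptors of these ligands were looked at next, because macrophages can also respond to the factors they secrete. Which cells of the culture gave the receptor signals was not tested. Of 9 receptor genes, 7 were well above background on both arrays and 0 passed 2-fold in either direction, with a median log2 difference of -0.08. Igf1r, the receptor of IGF-1, went from an intensity of 1782 to 1481, a log2 difference of -0.37. Insr, the related insulin receptor, had differences between -0.73 and -0.20 over 3 probes. Pdgfra, the receptor of PDGF-A, went from 784 to 1194, a log2 difference of 0.51, and Pdgfrb from 4236 to 3270.4, a difference of -0.47. These signs held under each scaling, save for Insr at its brightest probe, which reached 0.11. Egfr had a log2 difference of 0.35 at its brightest of 3 probes and -0.16 at the lowest, so its probes disagree in direction. Erbb2, the partner of the EGF receptor, had a difference of -0.05 and Met, the receptor of HGF, one of -0.08 at an intensity of 32.7 and 33.1, and both signs turned with spike-in scaling. Erbb3 and Erbb4 were detected on neither array.

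Among 10 other ligands of the same families, 4 were detected on both arrays, 3 on the IL-4 array alone and 3 on neither. Mst1, which encodes macrophage-stimulating protein, a relative of HGF, passed 2-fold. Its intensity was 14.8 in untreated BMDMs, not well above background, and 127 after IL-4, which makes it at least 4.06-fold higher. Its second probe was detected on neither array. With normexp background correction its log2 difference went from 2.02 to 0.85. The 4 ligands measured on both arrays, Igf2, Pdgfd, Epgn and Nrg1, lay between -0.70 and 0.17 with a median of -0.16.

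The list of IGF-binding proteins and other IGF regulators had 12 genes, of which 10 were well above background on both arrays and 1 passed 2-fold. Igfbp5, a secreted and matrix-bound IGF-binding protein, went from an intensity of 674 to 1989, a log2 difference of 1.46, or 2.76-fold higher. It stayed past 2-fold under each scaling, between 1.41 and 1.77. The other 9 lay within 2-fold, down to -0.87 for Igfbp7, and the median of the list was 0.04.

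Shedding and activation control how much active ligand leaves a cell. All 21 genes of this list were well above background on both arrays, 2 passed 2-fold upward, 0 downward, and the median was 0.06. Spint1, an inhibitor of the proteases that activate pro-HGF, went from 239 to 837, a log2 difference of 1.71, or 3.27-fold higher, and its dimmer probe had a difference of 0.90. Rhbdf2, which encodes iRhom2, the partner that brings the sheddase ADAM17 to the cell surface, went from 1154 to 2513, a difference of 1.02 that was 0.89 with normexp and just below 1 with quantile normalization and when the 75th percentile was taken over the probes detected on both arrays. Adam17 itself had a difference of 0.17 at its brighter probe, which was -0.01 with normexp, and of 0.45 at its dimmer one. Plat, tissue plasminogen activator, had a difference of -0.59. Among 8 negative regulators of receptor tyrosine kinases, among them the transmembrane protein Lrig1, 6 were well above background on both arrays, with a median of 0.22, and 1 passed 2-fold. Cblb, an E3 ubiquitin ligase, went from 1269 to 3139, a log2 difference of 1.21, and its dimmer probe had a difference of 1.01. Spry2 went from 50.9 to 12.2, not well above background, which makes it at least 1.96-fold lower. It was not counted as 2-fold lower, though its true difference could be larger. The other scalings put its log2 bound between -1.02 and -0.58, and normexp gave -0.77.

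**Figure D4:**
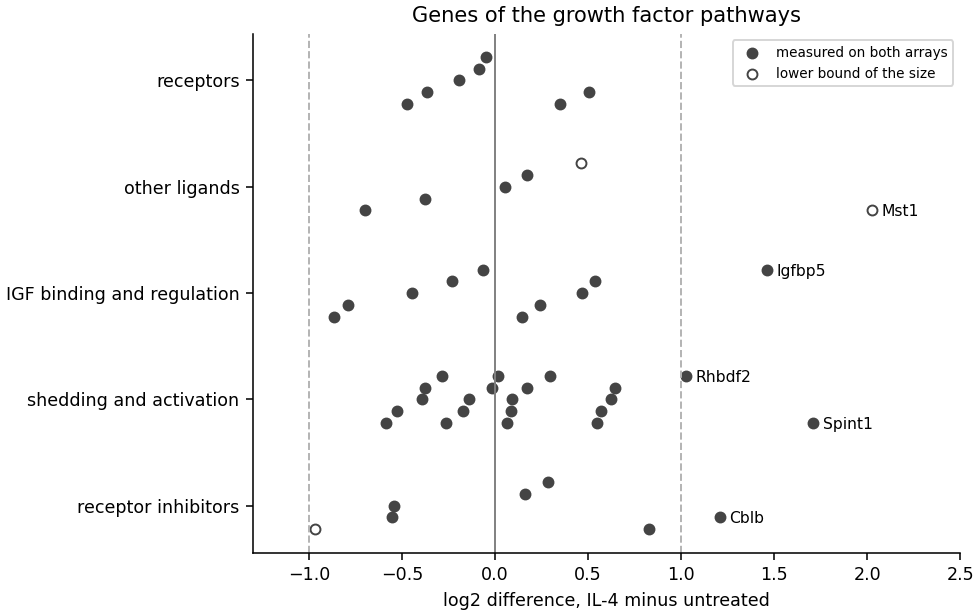
Log2 difference (IL-4 minus untreated) of each gene with a value in the 5 pathway lists, measured on both arrays (filled) or as a lower bound of the size (open), spread vertically within a list for legibility, with dashed lines at 2-fold. Mst1, Igfbp5, Rhbdf2, Spint1 and Cblb are the 5 genes past the upper line, and 0 genes lie past the lower one, with Spry2 just inside it on a bound.

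Over the 5 lists together, 52 of 60 genes were well above background on at least 1 array, and 5 of them passed 2-fold upward and 0 downward, beside the 2.86% and 4.47% over all genes. Of the 60, 48 were detected on both arrays, with 4 past 2-fold upward and 0 downward. Of all 17242 genes detected on both arrays, 363 were higher and 270 lower past 2-fold. These counts describe the lists and were not tested.

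Markers were read to see what cells the RNA could hold. Of 7 macrophage markers 6 were read, since Cd68 was not matched by its accession, and all 6 were well above background on both arrays, among them Csf1r at 146026 and 166510 and Adgre1, which encodes F4/80, at 23816 and 28655. Mertk and Fcgr1 were over 2-fold lower, at log2 differences of -1.14 and -1.23, which spike-in scaling brought under 2-fold. Itgam, at its brightest probe, and Lyz2 were also lower, at -0.71 and -0.70. Csf1r and Adgre1 were at 0.09 and 0.17 at their brightest probes, and the median of the 6 macrophage markers was -0.71. All 5 fibroblast markers were also well above background on both arrays, with Col1a2 at 233342 in untreated BMDMs and 234332 after IL-4 and a summed intensity of 323368 and 316085. The median log2 difference of the fibroblast markers was -0.09. Of 5 platelet and megakaryocyte markers 4 were well above background, with summed intensities of 873 and 679, and Itga2b, the integrin subunit αIIb, went from 97.2 to 38.3, a log2 difference of -1.44 that was -0.75 with normexp. All 3 endothelial markers were detected, with sums of 2727 and 3151. The 4 neutrophil markers read had sums of 3908 and 3045, the 5 lymphocyte markers, of which Cd3e alone was detected, sums of 405 and 331, and the 3 eosinophil markers, of which Epx was detected on neither array, sums of 859 and 936. Of the 4 mast cell and basophil markers, with sums of 274 and 128, Ms4a2 and Fcer1a were detected on neither array. Cpa3, a mast cell protease, went from 91.2 to 6.37, not well above background, which makes it at least 3.51-fold lower. This bound, -1.81 on the log2 scale, was -1.03 with normexp and between -1.86 and -1.50 with the other scalings. Fibroblasts and platelets are known sources of several of these growth factors. The part of such cells in the signals of the growth factors, their receptors and the other pathway lists was not tested.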

How the data were processed

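RNA of untreated and IL-4-treated BMDMs was measured on 1 single-color Agilent mouse array each. Intensity in the deposited scanner files comes from Feature Extraction 10.10.1.1, with background subtracted and spatial trends removed, and without scaling from one array to the other. A second table by the authors holds processed log2 values, and its centring is not stated. Its column medians were 0.16 and 0.02, and its differences at the growth factor probes matched those from the scanner output, after a constant offset, within 1.9e-06 log2 units.

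Control spots and spots that the software marked as outliers were left out. Spots of a probe were averaged as log2 values, from which the array's 75th percentile (9.84 untreated, 9.94 IL-4) was subtracted. A probe was well above background where the software said so for most of its spots, which held for 59.8% of the untreated and 57.4% of the IL-4 spots for genes. No growth factor spot was an outlier or saturated, and each probe was printed in 1 spot. Names came from RefSeq accessions in a table of GRCm38.p6, which named 27229 of 39424 probes. The design itself was annotated on mm9, so no probe coordinates are given. For a lower bound, the signal on the dim array was raised to the lowest one called well above background there, if below it.

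No test was run. Genes named are all members, the receptors, pathway genes past 2-fold and 1 check of the IL-4 response; other genes named beside them, such as Adam17, Plat and Igfbp7, and the markers were chosen for their role or place in a list. The members, lists and thresholds were chosen with earlier results of these data known. Counting was checked on simulated data with known changes. Alternatives were 6 other scalings, normexp with an offset of 50 on the median pixel intensity, other filters, probe rules and folds, spots marked as outliers kept, and the authors' processed log2 values. Values were computed in Python 3.11.15 (pandas 2.3.3, numpy 2.4.6), and normexp, quantile and cyclic loess ran in limma 3.58.1 under R 4.3.3.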

Additional observations from a re-analysis of the deposited data

How the results depend on the processing

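No paired analysis was possible because there was a single array on either side. The median difference of all genes detected on both arrays, -0.01, was 0.20 after median scaling and 0.29 after spike-in scaling, which add a constant to every gene. Of the 7 growth factors with a value, 4 (Pdgfa, Igf1, Hgf and Ereg) kept their sign in all 13 alternatives that gave them a value. Many of these could not change it. All 4 were detected on both arrays, so the filters could not move them. Outlier spots kept and the authors' values could hardly do so. For Hgf and Ereg, read by 1 probe each, the probe rules also had no effect, which leaves the scalings and normexp. Pdgfc, at -0.15, turned to 0.066 with median scaling and 0.16 with spike-in scaling, and Pdgfb and Hbegf each changed sign in 3 settings. The 5 pathway genes past 2-fold kept their sign in every alternative that gave a value, though the filters could not move those detected on both arrays. Growth factors at least 2-fold higher, 1 in number, were 2 with median scaling, spike-in scaling, the median over the probes of a gene, the probe with the largest difference and a fold of 1.5, and 0 at a fold of 4. Those at least 2-fold lower, 0 in number, were 1 with the percentile of probes detected on both arrays (Hgf), 1 with no filter on dim probes (Areg) and 2 at a fold of 1.5. Pathway genes at least 2-fold higher, 5 in number, were 3 with normexp, 8 at a fold of 1.5 and 1 at a fold of 4, and those lower, 0 in number, were 1 with the percentile of probes detected on both arrays, 1 by the authors' processed values, 2 without a filter on dim probes and 5 at a fold of 1.5. All genes at least 2-fold higher, 564, numbered 994 with spike-in scaling, 297 with normexp, 363 with genes detected on both arrays only, 1389 with no filter, 848 in the authors' processed values, 1206 at a fold of 1.5 and 116 at a fold of 4. All genes at least 2-fold lower, 883, numbered 564 (median scaling), 473 (spike-in scaling), 532 (quantile normalization), 268 with normexp, 270 with genes detected on both arrays only, 4075 with no filter, 1645 in the authors' processed values, 2164 at a fold of 1.5 and 89 at a fold of 4. A filter, another fold or a constant added to every gene changes a count by construction. So does the reading of the authors' values, in which genes detected on 1 array kept their plain difference instead of a bound. For quantile normalization, cyclic loess and normexp the cause was not tested.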
